A study of Danio rerio with 4 samples.

Results

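The genes of glycolysis and lactate metabolism were followed in whole zebrafish embryos 48 hours post fertilisation (hpf), after injection of a morpholino against hace1 or of a standard control morpholino. Members were chosen by gene symbol alone, from the glucose carriers through the glycolytic enzymes to the lactate carriers and the pyruvate dehydrogenase and gluconeogenic enzymes, and 95 of the 32512 listed genes matched. Of these, 52 had enough counts for the test, 7 were above 0 but too low, and 36 were listed at 0 in all 4 libraries. Only the first letters of the symbol matched for pkmyt1 (a cell cycle kinase), pgam5 (a mitochondrial phosphatase) and SLC2A4RG (a transcription factor), which leaves 92 members, 50 of them tested.

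All embryos were of the Tubingen wild-type strain. The control MO group received the standard control morpholino and the hace1 MO group a morpholino against a splice site in the part of the hace1 transcript that encodes the catalytic HECT domain. Hace1 is an E3 ubiquitin ligase. Morpholinos are synthetic antisense oligonucleotides that reach every tissue of the early embryo, so the knockdown is neither restricted to a cell type nor a stable mutation. Each group had 6 RNA samples of about 100 embryos each, and 3 of these were pooled into each library, giving libraries A and B per group. The labels do not say whether the pools came from different clutches, so a p-value here reflects only the variation among pools, part of which may be technical. An Ion Proton chip carried 2 libraries, and the sources used here do not state the pairs. If each chip carried a single group, chip and morpholino cannot be told apart. The 2 oligonucleotides that define the groups are shown 5′ to 3′:
hace1-HECT morpholino: ccctcgaactgttagacagaataaa
standard control morpholino: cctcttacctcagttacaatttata

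Glycolysis splits glucose into pyruvate in the cytosol. Hexokinase traps the sugar, phosphofructokinase commits it, aldolase cleaves it, and the later enzymes recover ATP. Pyruvate is then reduced to lactate by lactate dehydrogenase and exported by monocarboxylate carriers, or oxidised in mitochondria by the pyruvate dehydrogenase complex, which the pyruvate dehydrogenase kinases switch off. Fishes often keep a pair of paralogues (suffixes a and b) for a gene that mammals have as a single copy. Muscle, neurons and liver use different forms of aldolase, enolase and other enzymes.

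Depth was unequal, with estimated gene counts that summed to 5192490 in control MO A, 8596019 in control MO B, 9856173 in hace1 MO A and 10413981 in hace1 MO B. Levels are in counts scaled to a common library size (CPM), and a single count was worth 0.173 CPM in control MO A and 0.101 CPM in hace1 MO B. The members held between 0.645% and 0.822% of all counts. Hace1 itself stood at 18.6, 13.5, 13.7 and 13.6 CPM in control MO A, control MO B, hace1 MO A and hace1 MO B (adjusted p = 0.647), and a splice-blocking oligonucleotide need not lower the count of a gene. In every list of 4 values that follows, the libraries stand in this order.

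Not every isoform was quantified. Among the 36 members listed at 0 were ldha, ldhba and ldhd, so that ldhbb was the one lactate dehydrogenase gene with counts, and hk1, gpib, aldoab, aldoca, aldocb, gapdhs, pgam2, eno4, PFKL, pfklb and pfkfb2a. The glucose carriers slc2a1a, slc2a8, slc2a10, slc2a11a, slc2a15a, slc2a15b, slc2a9l1 and SLC2A13 and the carriers slc16a1, slc16a6a, slc16a7, slc16a12b, SLC16A3 and SLC16A13 were at 0 as well. So were pdha1a, pdk1, PDK2, fbp1a, fbp2 and pck2, and pgam5 of the letter-only matches. A 0 in these files can come from the counting, since 59.3% of all genes were listed at 0, so nothing is said of whether these genes were expressed. The 7 members above 0 but untested were slc2a5, slc2a6, slc2a11l, gck, pdha1b, PFKFB1 and SLC16A5, at means of 0.254 to 0.783 CPM. Symbols that differ only in case are different genes: tested pfkfb1 is ENSDARG00000037140 and untested PFKFB1 is ENSDARG00000074457, while tested slc16a5 is ENSDARG00000030472 and untested SLC16A5 is ENSDARG00000013552. Likewise SLC16A1 (ENSDARG00000016963) was tested, while slc16a1 (ENSDARG00000068572) was at 0. The same holds for tested pdk2 (ENSDARG00000059054) and PDK2 (ENSDARG00000020876) at 0, and for tested slc16a3 (ENSDARG00000045051) and SLC16A3 (ENSDARG00000028583) at 0.

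The question was whether knockdown of hace1 was accompanied by a change in these genes. No member passed the test. With limma-voom and Benjamini-Hochberg adjustment over the 10832 genes tested, 0 of the 52 tested members had an adjusted p below 0.05, against 2.76% of all tested genes. At an unadjusted p below 0.05 there were 14 members, 11 with a higher and 3 with a lower mean in hace1 MO, which is 26.9% of the members against a background of 22.4%. Both libraries of a group lay outside the range of the other group for 33 of the 52 members (63.5%, against 53.6% of all tested genes), 17 of them higher and 16 lower in hace1 MO. The median log2 fold change, hace1 MO minus control MO, was 0.03 over the tested members and 0.01 over all tested genes, with members from -0.72 to 1.26. With 2 libraries against 2, the smallest p that an exact two-sided permutation test could give for a single gene is 0.333.

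The count of 0 depended on the libraries. Without control MO A it was 11 members (9 higher and 2 lower), and without control MO B it was again 11 (6 higher and 5 lower), when 15.3% and 23.9% of all tested genes passed. Without hace1 MO A or without hace1 MO B no member passed, but almost no gene of the whole table did either. In these fits the lone library of a group is assumed to vary like the pair of the other group.

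**Figure D1:**
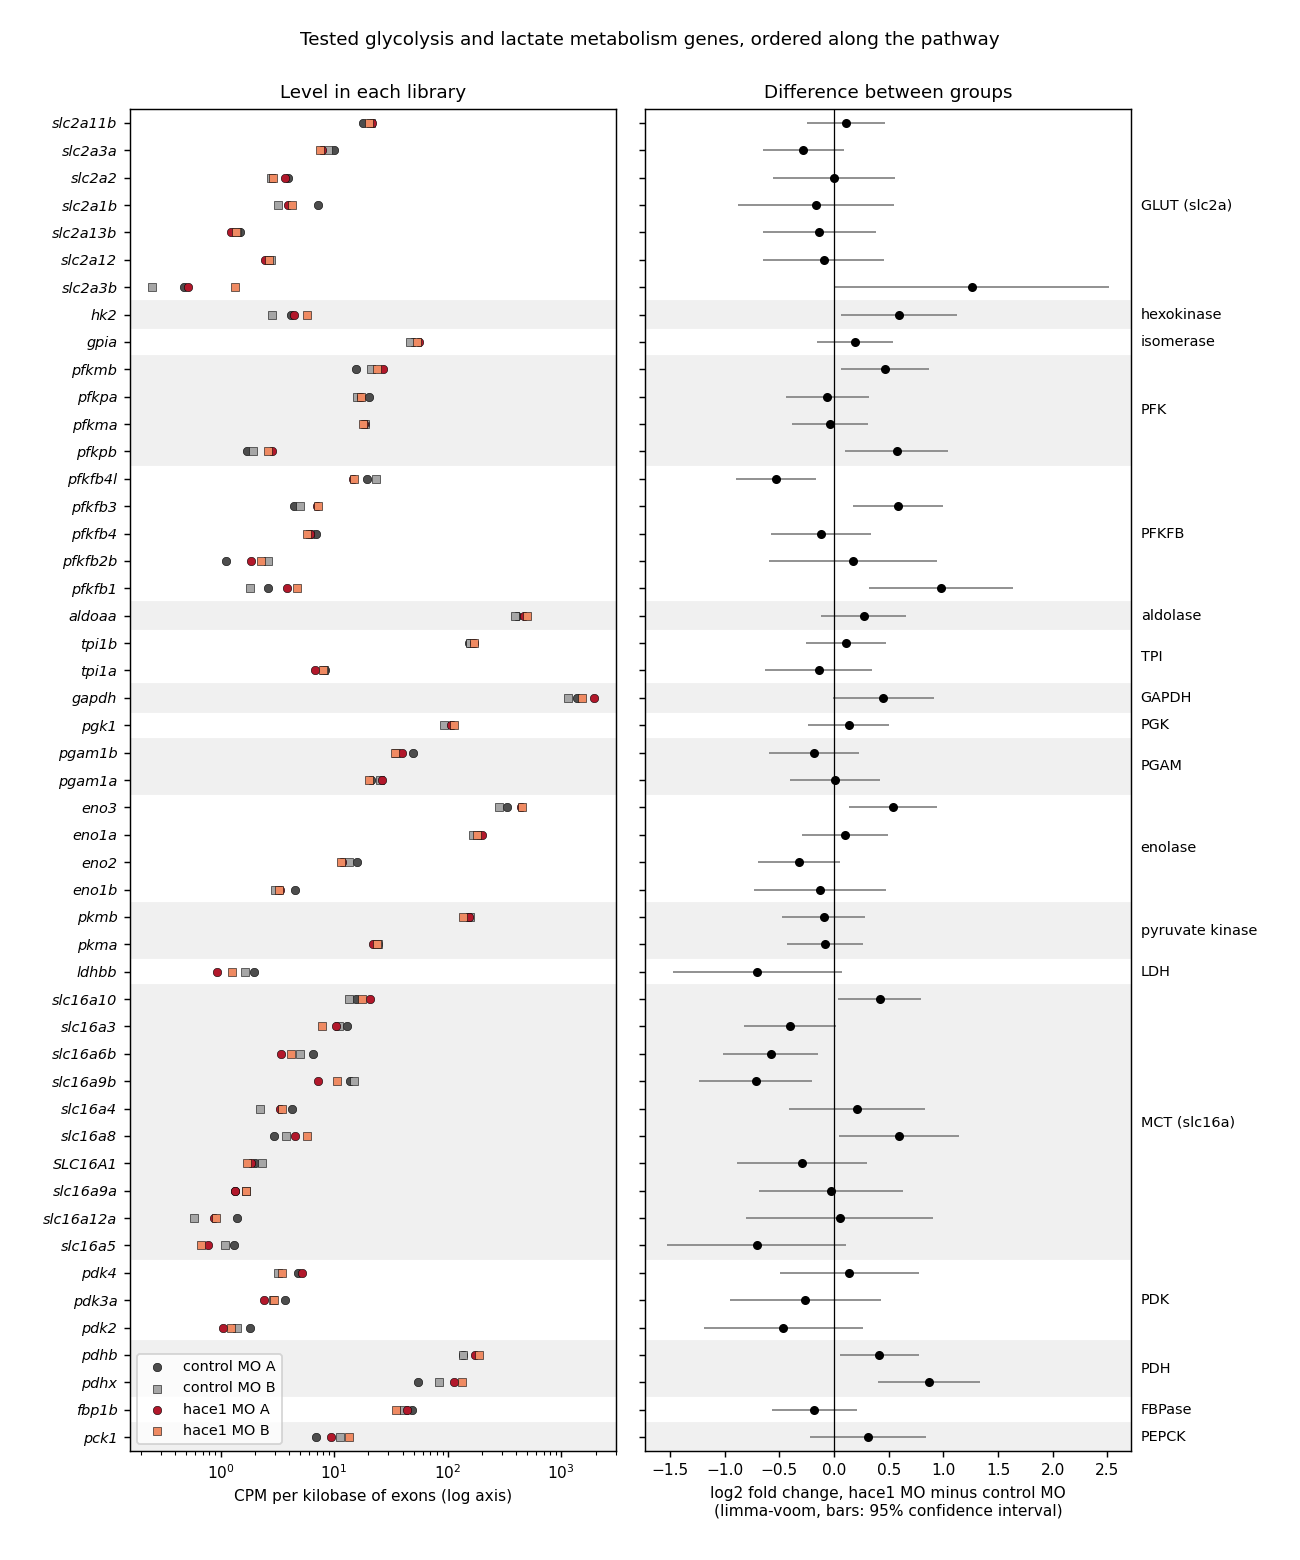
Left, the level of 49 tested members of the pathway in each library, as CPM per kilobase of exons on a log axis, ordered from glucose uptake to gluconeogenesis. Right, the log2 fold change, hace1 MO minus control MO, with its 95% confidence interval from limma-voom. Gapdh is highest at a mean of 1498 CPM per kilobase, and pdhx has the interval farthest from 0 relative to its width.

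Levels differed widely between members. Per kilobase of exons, gapdh led with a mean of 1498 CPM, and among the next were aldoaa at 441, eno3 at 376, eno1a at 184, tpi1b at 163, pdhb at 158 and pkmb at 151. The per-kilobase ranges over the 4 libraries of aldoaa (392 to 498) and eno3 (284 to 450) overlapped, as did those of eno1a (168 to 202) and tpi1b (155 to 169). Gapdh, at 1146 to 1932 CPM per kilobase, stood clear of all other members.

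At the entry of the pathway, slc2a11b, a hexose carrier of the GLUT family known from medaka for its part in pigment cells, had the highest CPM among the glucose carriers. Its values were 48.8, 57.4, 59.0 and 55.4 CPM and the groups overlapped. Slc2a3a, of the neuronal carrier type GLUT3 in mammals, stood at 39.8, 34.7, 31.1 and 29.8 CPM (log2 fold change -0.28, SE 0.17, adjusted p = 0.348). Its paralogue slc2a3b had the largest log2 fold change of all members, 1.26 (SE 0.57, adjusted p = 0.218), from 1.13, 0.595, 1.22 and 3.22 CPM. That value leaned on hace1 MO B, since hace1 MO A was close to control MO A. Summed over the 10 glucose carriers above 0, CPM was 130.8, 122.5, 124.2 and 119.6, with overlapping groups. The tested glucose carriers gave 2 positive and 5 negative log2 fold changes.

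Hexokinase was represented by hk2, the muscle-type form in mammals, which phosphorylates glucose. It stood at 14.0, 9.48, 14.9 and 19.5 CPM (log2 fold change 0.60, SE 0.24, adjusted p = 0.177), and hace1 MO A was little above control MO A. Gpia, glucose-6-phosphate isomerase, stood at 112.3, 105.0, 126.7 and 121.7 CPM (log2 fold change 0.19, SE 0.16, adjusted p = 0.505). Both hace1 MO libraries lay above both control MO libraries for these genes, and neither passed the test.

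Phosphofructokinase, the committing enzyme, had counts for a muscle-type and a platelet-type pair, while PFKL and pfklb were listed at 0. The a and b copies of each pair had different values. Pfkmb stood at 47.6, 64.5, 82.2 and 71.6 CPM (log2 fold change 0.46, SE 0.18, adjusted p = 0.168), while pfkma stood at 48.3, 48.7, 48.1 and 46.2 CPM (log2 fold change -0.04, SE 0.16). Pfkpb stood at 9.0, 10.2, 15.0 and 14.0 CPM (log2 fold change 0.57, SE 0.22, adjusted p = 0.148), while pfkpa stood at 74.7, 58.0, 62.6 and 63.2 CPM (log2 fold change -0.06, SE 0.17). In both of these pairs the b copy had hace1 MO values above the control MO values, and the a copy did not. Groups did not overlap for 53.6% of all tested genes, and for 2890 of the 10832 the hace1 MO values were the higher ones. The ratio of pfkmb to pfkma per kilobase was 0.848, 1.14, 1.47 and 1.33. These differences between copies were not tested.

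The PFKFB enzymes make and degrade the sugar bisphosphate that activates phosphofructokinase, and 3 of their 5 tested genes had an unadjusted p below 0.05, as did 22.4% of all tested genes. Pfkfb4l (Zv9 chromosome 6, 39924469 to 39960287, minus strand) was the most abundant, at 57.8, 70.0, 43.9 and 44.2 CPM (log2 fold change -0.53, SE 0.17, adjusted p = 0.0958). Pfkfb3 (chromosome 4, 24560099 to 24572537, minus strand) stood at 14.9, 16.8, 23.7 and 24.0 CPM (log2 fold change 0.58, SE 0.19, adjusted p = 0.106). Pfkfb1 (chromosome 23, 26304566 to 26325308, plus strand) stood at 4.50, 3.12, 6.54 and 8.10 CPM (log2 fold change 0.98, SE 0.30, adjusted p = 0.0920).

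The groups did not overlap for any of these 3 PFKFB genes (53.6% of all tested genes had no overlap), and none passed. Since pfkfb4l was lower and the other 2 were higher in the hace1 MO libraries, the makeup of the family differed more than its sum. Pfkfb4l held 55.2%, 59.7%, 43.6% and 42.3% of the family's CPM per kilobase. The share of pfkfb3 was 12.7%, 12.8%, 21.2% and 20.6%, and that of pfkfb1 was 7.48%, 4.63%, 11.3% and 13.5%. Pfkfb3 to pfkfb4l per kilobase thus stood at a ratio of 0.223 ± 0.0109 in control MO and 0.486 ± 0.00152 in hace1 MO (mean ± SD, n = 2). That ratio sets a gene higher in hace1 MO over one lower there, so it repeats their values and was not tested. The family's summed CPM was 95.7, 110.9, 92.3 and 95.5. In mammals PFKFB3 favours the kinase reaction; the balance of kinase and phosphatase in the zebrafish forms cannot be read from RNA.

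**Figure D2:**
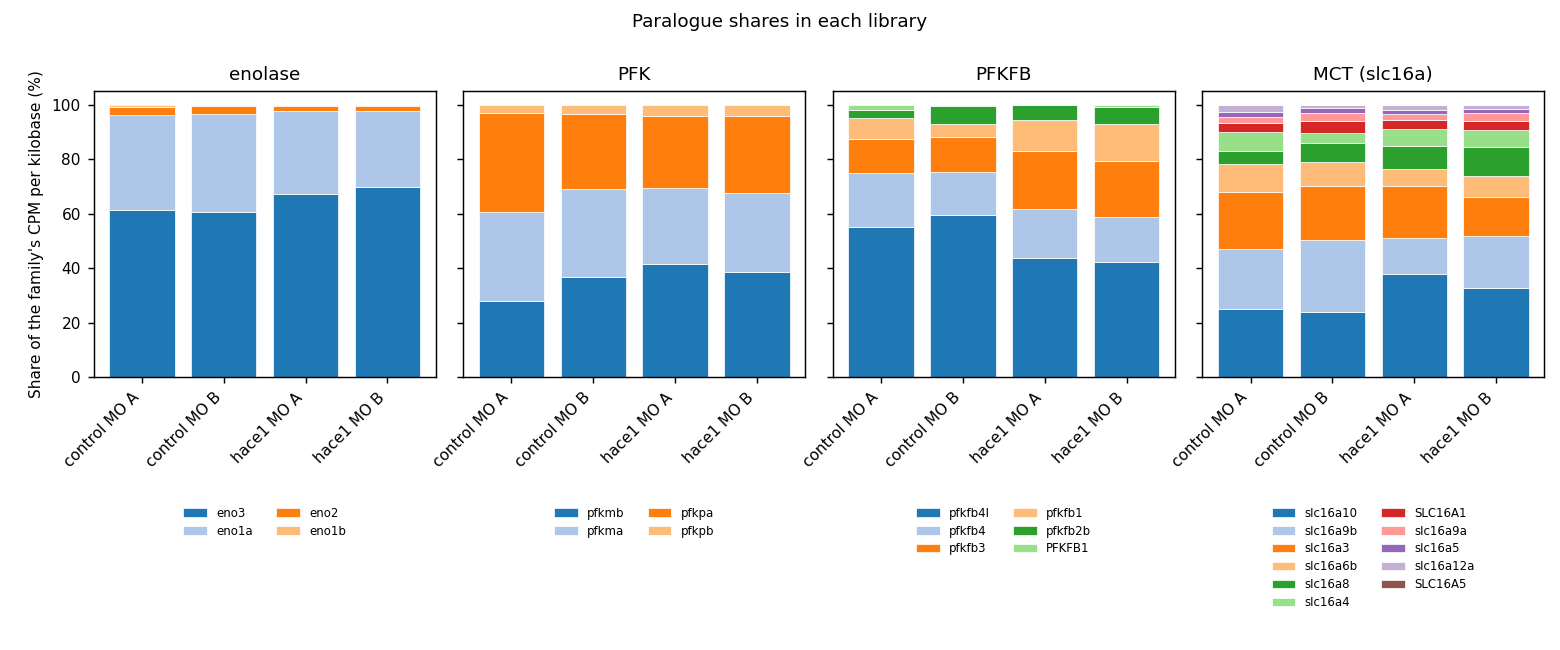
Stacked bars give each gene's share, in percent, of the CPM per kilobase summed over its family in each of the 4 libraries, for enolase, phosphofructokinase (PFK), PFKFB and the slc16a carriers. Pfkfb4l holds over 55% of its family in both control MO libraries and under 44% in both hace1 MO libraries, and the share of eno3 in enolase is higher in the hace1 MO libraries.

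Aldolase cleaves the 6-carbon sugar. Aldoaa, of the muscle and general type, stood at 687.3, 661.3, 787.1 and 839.5 CPM (log2 fold change 0.27, SE 0.18, adjusted p = 0.398), and the groups did not overlap. Triosephosphate isomerase was almost all tpi1b, at 281.0, 286.0, 305.9 and 305.6 CPM, with tpi1a at 10.6, 10.5, 8.80 and 10.4 CPM.

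Gapdh (chromosome 16, 19254364 to 19261820, minus strand), which makes the first NADH of the pathway, stood at 2486, 2065, 3481 and 2764 CPM. Its log2 fold change was 0.45 (SE 0.21, 95% interval -0.01 to 0.91, adjusted p = 0.235). Both hace1 MO libraries lay above both control MO libraries, but the spread within each group was wide. Pgk1 stood at 224.0, 191.7, 220.4 and 235.2 CPM, pgam1b at 129.7, 92.0, 102.5 and 90.3 CPM, and pgam1a at 37.1, 44.9, 47.2 and 36.2 CPM. The groups overlapped for all 3 of these lower-pathway genes.

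Enolase forms phosphoenolpyruvate and has tissue-typical genes. Eno3 (chromosome 23, 44727895 to 44739806, plus strand), the muscle form, stood at 674.2, 578.0, 898.7 and 916.2 CPM (log2 fold change 0.54, SE 0.18, adjusted p = 0.122). Eno2, the neuronal form, stood at 39.4, 33.4, 29.1 and 28.7 CPM (log2 fold change -0.32, SE 0.17, adjusted p = 0.293). Eno1a, the widely expressed form, stood at 520.3, 467.6, 559.5 and 500.1 CPM with overlapping groups, and eno1b was at 8.24, 5.53, 6.03 and 6.00 CPM. Muscle-type and neuronal enolase thus lay on opposite sides of the control MO values, and neither passed. The ratio of eno3 to eno2 per kilobase was 20.9, 21.2, 37.7 and 39.0, with close agreement between the libraries of a group. It sets a gene higher in hace1 MO over one lower there, so it repeats their values and was not tested.

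Markers of the tissues are set beside these values. Of 18 fast muscle markers, 12 were tested and 1 was called higher, mybpc2b, at 159.1, 203.6, 311.9 and 343.9 CPM (log2 fold change 0.87, SE 0.18, adjusted p = 0.0388). The median log2 fold change of the 12 was 0.46, with 11 positive and 1 negative, tnni2b.1 at -0.21. The groups did not overlap for 8 of the 12, against 53.6% of all tested genes. Of all tested genes, 2.76% were called in either direction. The fast muscle list summed to 77540 and 97010 CPM in control MO and to 122800 and 112000 CPM in hace1 MO. Ckma, tnni2a.4, actn3a, pvalb1, pvalb4 and acta1b of that list were at 0. Of 14 neuron markers, 9 were tested, all 9 with a negative log2 fold change (median -0.33), and gad2 was called lower, at 85.9, 85.6, 49.9 and 46.7 CPM (log2 fold change -0.83, SE 0.16, adjusted p = 0.0295). Their summed CPM was 1690, 2136, 1557 and 1656, and snap25b, sncb and vamp2 were among its 4 genes at 0. The call of mybpc2b was lost without hace1 MO A (adjusted p = 0.430) and without hace1 MO B (0.538), and that of gad2 likewise (0.404 and 0.538).

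Of 18 photoreceptor markers 7 were tested and 4 were called lower, against 2.76% of all tested genes called in either direction. The log2 fold change was negative for 6 of the 7 and positive for 1 (median -1.26). The list summed to 76.8, 76.5, 30.1 and 24.7 CPM, and rho, crx and gnat1 were among the 11 at 0. Without hace1 MO B none of these 4 calls held, and without hace1 MO A that of rs1a did. The calls of opn1lw2 and sagb were also lost with no filter on low counts, with limma-trend, on the deposited log2 values and after the length curve, and that of sagb with median-of-ratios scaling. Among the tested members taken as typical of fast muscle, eno3, gapdh and pfkmb had positive log2 fold changes. Pfkma (-0.04) and pkma (-0.08) had negative ones, and none of these genes passed the test. The part of tissue makeup in the values of these genes and of eno2 was not tested. In whole embryos, fewer cells of a type and less RNA per cell cannot be told apart.

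Pyruvate kinase, the last ATP-forming step, showed little difference. Pkmb stood at 423.0, 430.5, 424.2 and 375.8 CPM (log2 fold change -0.10, SE 0.17) and pkma at 166.4, 166.2, 151.2 and 163.0 CPM (log2 fold change -0.08, SE 0.16). The 95% intervals of both, shown in the plot of changes, include 0. Ldhbb, a heart-type lactate dehydrogenase, was at only 3.68, 3.03, 1.72 and 2.34 CPM (log2 fold change -0.70, SE 0.36, adjusted p = 0.266), so this step is hardly covered.

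The slc16a family exports lactate and moves other monocarboxylates and amino acids. Of its 10 tested genes 4 had an unadjusted p below 0.05, in both directions, and 7 had groups that did not overlap, against 22.4% and 53.6% of all tested genes. Slc16a9b stood at 14.6, 15.8, 7.63 and 11.2 CPM (log2 fold change -0.72, SE 0.24, adjusted p = 0.111), and slc16a6b at 31.9, 24.5, 16.8 and 20.3 CPM (log2 fold change -0.58, SE 0.20, adjusted p = 0.123). Slc16a10, an aromatic amino acid carrier in mammals, stood at 36.9, 31.9, 49.3 and 42.3 CPM (log2 fold change 0.42, SE 0.17, adjusted p = 0.184). For these 3 carriers the groups did not overlap.

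Slc16a3 and slc16a8 are lactate exporters in mammals. Slc16a3, the exporter of glycolytic cells, stood at 40.7, 34.6, 32.6 and 24.4 CPM (log2 fold change -0.40, SE 0.19, adjusted p = 0.236). Slc16a8, the exporter of the retinal pigment epithelium, stood at 6.32, 7.94, 9.67 and 12.2 CPM (log2 fold change 0.59, SE 0.25, adjusted p = 0.192). They lay on opposite sides, with a slc16a8 to slc16a3 ratio per kilobase of 0.229, 0.339, 0.438 and 0.738, and neither passed. The ratio repeats these values and was not tested. Slc16a5 stood at 2.83, 2.37, 1.68 and 1.45 CPM, and slc16a9a, the paralogue of slc16a9b, at 3.87, 4.85, 3.84 and 4.87 CPM with no offset between the groups (log2 fold change -0.03, SE 0.30). EMB, which encodes embigin, a chaperone of some monocarboxylate carriers in mammals, stood at 2.87, 2.21, 2.10 and 1.80 CPM.

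The entry into mitochondria held the member closest to the threshold. Pdhx (chromosome 25, 38435571 to 38442455, minus strand), which anchors the E3 enzyme in the pyruvate dehydrogenase complex, stood at 100.1, 155.0, 209.5 and 245.8 CPM. Its log2 fold change was 0.87 (SE 0.21, 95% interval 0.40 to 1.33, adjusted p = 0.0513), a 1.83-fold higher level in hace1 MO. Both hace1 MO libraries lay above both control MO libraries, and the libraries of the control MO group differed most from each other. Over the other settings its adjusted p ran from 1.56e-11 without control MO B to 0.565 without hace1 MO B. Without control MO A it was 0.00303 and without hace1 MO A it was 0.433. It passed with library totals (0.0426), with sample quality weights (0.0164) and with the letter A or B as a block (0.000859).

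Pdhb (chromosome 22, 10311976 to 10322652, plus strand), the beta subunit of the E1 enzyme, stood at 192.1, 192.7, 247.3 and 266.4 CPM (log2 fold change 0.42, SE 0.16, adjusted p = 0.165). The control MO libraries were nearly equal and both hace1 MO libraries lay above them. The alpha subunit was hardly covered, since pdha1b was at 1.04, 0.669, 0.592 and 0.835 CPM and pdha1a was listed at 0. Summed CPM of the 3 pyruvate dehydrogenase genes above 0 was 293.2, 348.3, 457.3 and 513.0.

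The kinases that inhibit the complex were low. Pdk4 stood at 9.06, 6.09, 9.79 and 6.58 CPM and pdk3a at 4.58, 3.61, 2.99 and 3.71 CPM, and the groups overlapped for both. In the fixed list of carrier and remaining complex genes, 4 of 7 genes were tested, 0 were called and the median log2 fold change was -0.20. The pyruvate carrier gene mpc2 stood at 163.2, 186.3, 194.0 and 168.4 CPM, while mpc1 and dlat were at 0. The list also held dld, at 0, which in zebrafish is the symbol of the Notch ligand deltaD. It does not belong to the complex, so the gene of the E3 enzyme was not looked up.

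Gluconeogenesis was represented by fbp1b, at 68.6, 57.6, 62.2 and 49.2 CPM, and by pck1, which makes phosphoenolpyruvate from oxaloacetate, at 18.6, 29.9, 25.0 and 35.8 CPM. The groups overlapped for both. Of 16 liver and yolk markers, 12 were tested, 0 were called, and the median log2 fold change was 0.15, with sums of 3745, 5292, 5467 and 4840 CPM. Apoea and apoa1a were at 0. The 11 tested members outside the naming rule, slc16a8 among them, had means of 3.15 to 12.3 CPM and log2 fold changes of -0.46 to 0.59, with adjusted p of 0.192 or more. Among the letter-only matches, pkmyt1 stood at 16.9, 17.0, 19.3 and 16.5 CPM and SLC2A4RG at 2.67, 2.87, 3.02 and 6.98 CPM.

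CPM was summed over the genes with counts at each step. Several steps, such as gapdh and the isomerase, rest on a single gene, and paralogues listed at 0 add nothing to the sums. Among single genes, 53.6% of all tested had groups that did not overlap. The hace1 MO to control MO ratio of mean summed CPM was 1.51 for pyruvate dehydrogenase, 1.47 for hexokinase, 1.37 for gapdh and 1.27 for enolase, with no overlap between groups. It was 1.12 for phosphofructokinase and 1.07 for triosephosphate isomerase, also with no overlap, but 1.00 and 0.960 when library totals were used for scaling. It was 0.939 for pyruvate kinase, 0.909 for PFKFB and 0.606 for ldhbb, again with no overlap. The groups overlapped for phosphoglycerate kinase (1.1, or 0.977 on library totals), the mutase (0.909), the glucose carriers (0.962), the slc16a carriers (0.924), the kinases of the complex (0.920), fructose bisphosphatase (0.882) and pck1 (1.25). On library totals, the only steps with no overlap were pyruvate dehydrogenase on the higher side and ldhbb, PFKFB, pyruvate kinase and both carrier families on the lower side. Of these, only the carrier families had overlapping groups with the scaling used for the main values. Library totals moved the median log2 fold change of all tested genes from 0.01 to -0.14. These sums are descriptions and carry no test.

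**Figure D3:**
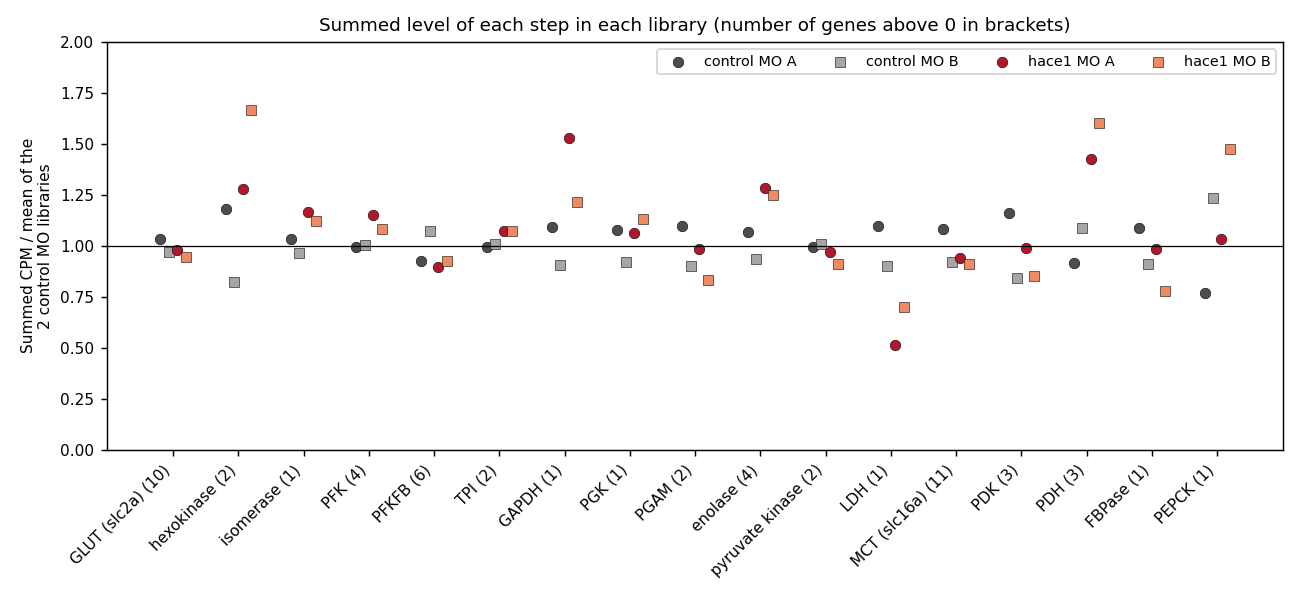
Summed CPM of the genes above 0 at the steps shown, in each library, divided by the mean of the 2 control MO libraries, with the line at 1 marking that mean. The hace1 MO points of pyruvate dehydrogenase, gapdh and enolase lie above both control MO points, and those of pyruvate kinase and ldhbb lie below.

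Pathways that branch from glycolysis were compared by lists, which were chosen with earlier results of these data known. Of 11 pentose phosphate genes, 7 were tested and 1 was called, against 2.76% of all tested genes called in either direction. Prps1a, which makes the activated ribose for nucleotides, rose, at 108.2, 119.2, 207.4 and 220.5 CPM (log2 fold change 0.91, SE 0.16, adjusted p = 0.0249). That call was lost without hace1 MO A (adjusted p = 0.404) and without hace1 MO B (adjusted p = 0.538). Tktb, a transketolase, stood at 282.1, 246.6, 366.0 and 394.1 CPM (log2 fold change 0.52, adjusted p = 0.112), and taldo1, transaldolase, at 183.9, 173.8, 233.7 and 256.8 CPM (log2 fold change 0.45, adjusted p = 0.141). The median log2 fold change of the 7 was 0.35.

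Of 25 citric acid cycle genes 14 were tested and 0 were called, with a median of 0.24 and 12 positive values. Dlst, of the oxoglutarate dehydrogenase complex, stood at 382.6, 386.0, 588.9 and 566.1 CPM (adjusted p = 0.0828), and mdh1aa, cytosolic malate dehydrogenase, at 591.1, 389.9, 443.1 and 399.6 CPM. Of 19 further glycolysis genes outside the symbol rule, 6 were tested, 0 were called and the median was 0.13; adpgk, an ADP-dependent glucokinase, stood at 52.5, 66.2, 68.6 and 74.3 CPM.

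Exon counts showed whether parts of a gene moved apart from the rest. By limma's diffSplice 0 of 51 members with several exons passed at an adjusted p below 0.05, against 0.0373% of 10731 genes, and 4 members had an unadjusted p below 0.05, against 4.79%. Among these were slc2a13b (adjusted p = 0.829), fbp1b (adjusted p = 0.966) and slc2a12 (adjusted p = 1.00). With a library left out, calls for exon use were most numerous without control MO B, over all genes as well as members. Slc2a2 was among the members called there. With any other library left out no member passed, and hardly any gene of the whole table did.

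The position of counts along genes differed between libraries in general. On a scale from 0 at the first to 1 at the last exonic base, the median over 5378 genes with at least 100 counts in every library was 0.545, 0.568, 0.574 and 0.571, so control MO A stood apart from the rest. Both hace1 MO libraries lay above both control MO libraries for 35.2% of these genes and for 3 of the 26 members in the same range (11.5%), fbp1b and pfkpa among them. For fbp1b the positions were 0.588, 0.645, 0.701 and 0.694, and its last exon held 46.1%, 53.8%, 66.9% and 65.5% of its count. The part of this coverage difference in the fbp1b exon values was not tested.

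Pkma carries a pair of alternative exons of 167 bases each, the layout by which mammals make the M1 and M2 forms of pyruvate kinase. This comparison was chosen after the values were seen. The upstream exon (chromosome 18, 691403 to 691569, minus strand) had 42.7, 53.4, 51.6 and 80.1 counts, and the downstream exon (689337 to 689503) had 11.9, 13.8, 22.4 and 32.0. The downstream exon thus held 21.7% of the pair's counts in control MO A (95% Clopper-Pearson interval on rounded counts 11.8% to 35.0%) and 20.5% in control MO B (11.9% to 32.6%). It held 30.3% in hace1 MO A (19.7% to 41.5%) and 28.5% in hace1 MO B (20.4% to 37.9%). The group means were 21.1% ± 0.843 and 29.4% ± 1.26 (SD, n = 2), but the intervals, which cover counting error only, overlap across all 4 libraries. In diffSplice the downstream exon had an unadjusted p of 0.0597 (adjusted p = 1.00), and no shift in exon choice was called. The sources used here do not say which exon corresponds to M1 or M2.

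**Figure D4:**
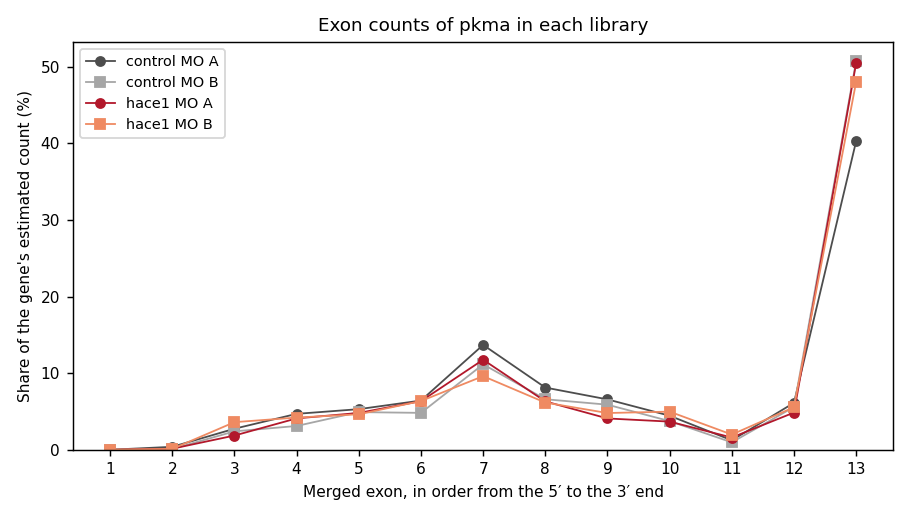
Share of the gene's estimated count, in percent, on each merged exon of pkma, in order from the 5′ to the 3′ end, for each of the 4 libraries. The last exon holds 40.3% in control MO A and 50.7%, 50.5% and 48.0% in control MO B, hace1 MO A and hace1 MO B.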

How the data were processed

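RNA of pooled embryos was sequenced in 2 libraries per group. Reads were handled with TopHat2 2.0.6, Bowtie2 2.0.2, cutadapt 1.2.1 and DESeq on build Zv9, per the submitters' processing notes. How reads were assigned to genes, whether by strand and with which annotation, is not given in the sources used, so reads of close paralogues or antisense genes may be split or shared. The authors deposited estimated counts for genes and exons (94.3% of the values of genes above 0 were not whole) and a share of its gene for each transcript. The deposited table of log2 values equalled, within 0.001 for 98.9% of 12216 genes, the log2 of the estimated count over a median-of-ratios size factor, centred on the gene's median. It supplied the symbols and served as an alternative. All value columns matched a sample by name, and 0 were left out.

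Members and lists were chosen with earlier results of these data known. Genes were tested with 15 counts in total and the equivalent of 10 counts, at a library of median size, in 2 or more libraries. Counts were scaled by trimmed means of M values (TMM, written for this purpose, trimming 30% on log ratios and 5% on levels), and limma-voom (limma 3.58.1, R 4.3.3) compared hace1 MO with control MO, with Benjamini-Hochberg adjustment over all tested genes. The script was tested on simulated data. Exon use was tested with diffSplice on merged exons. Named were called members, the 2 of highest mean CPM per role, both genes of tested paralogue pairs or families, and the 5 largest rises and falls with a mean of at least 1 CPM; slc16a8, pdha1b, slc2a2, slc2a12, slc2a13b, the markers tnni2b.1, sagb, BLVRB and alas2, and the exons described were chosen after their values were seen. No gene or protein sequences were used here. Figures used matplotlib 3.10.9. Values of a few members and markers are not reported here; they stayed in the tests and counts.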

Additional observations from a re-analysis of the deposited data

How the results depend on the processing

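The count of called members was 0 with median-of-ratios scaling, with scaling that ignored genes holding over 1% of a library, with no filter on low counts, with a minimum of 50 counts in every library, with limma-trend (prior count 2), with the deposited log2 values and after a length curve was subtracted. It was 2 with library totals only (pdhx higher, pfkfb4l lower), 1 with sample quality weights (pdhx) and 2 with the library letter as a replicate block (pdhx and pfkfb1). Leaving out a library gave 0 to 11 called members and, for exon use, 0 to 2. With exons of a mean count of at least 20 only, the exon count was 0. The cause of these differences was not tested. All genes called numbered 299 in the fit reported, 914 with the replicate block, 642 with quality weights, 628 (105 higher) with library totals, 177 after the length curve and 144 with the 50-count minimum; they numbered 1635 without control MO A, 2567 without control MO B, 10 without hace1 MO A and 6 without hace1 MO B.

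The letters A and B are labels shared across groups, and the A-minus-B differences of the groups had a correlation of -0.00925 over 6390 genes, so they are not taken as pairs. Among the 41 named members, the only sign changes were in those with small log2 fold changes in the fit reported, from -0.19 for pgam1b to 0.14 for pdk4. The signs of the other tested members were not compared between settings. Pgam1a (0.01 as reported) was -0.0182 with the 50-count minimum and -0.0157 after the length curve, slc16a9a 0.0117 on the deposited log2 values, and pfkpa 0.0032 and pkma 0.0807 after the length curve. With a library left out, pgam1a ran from -0.18 to 0.20, slc16a9a from -0.20 to 0.14, pfkpa from -0.26 to 0.12, eno1b from -0.47 to 0.12, slc2a11b from -0.000164 to 0.22, pgam1b from -0.44 to 0.071, pdk4 from -0.20 to 0.42 and pkmyt1 from -0.0411 to 0.19. The marker calls of gad2, opn1lw2 and sagb were lost after the length curve, and the last 2 also with no filter, limma-trend and the deposited log2 values (sagb with median-of-ratios scaling too). Values with library totals are taken relative to the shift of the median. Of 565 comparisons of the 41 named members with a setting, 523 kept their direction without a call, 26 passed only in the alternative and 16 changed sign; no named member was called in the fit reported, so none could lose a call. Depth limits most the members below 5 CPM, such as ldhbb, slc2a3b and slc16a5, which rest on few counts per library, and 2 libraries per group limit every test here.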

Other observations

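Glycogen metabolism and the hypoxia response are known to feed or drive glycolysis, and neither list had a called gene. Of 20 glycogen genes 9 were tested, with a median log2 fold change of 0.22 and 8 positive values. Gys1, the glycogen synthase of muscle in mammals, stood at 70.3, 74.6, 83.1 and 76.9 CPM, and slc37a4b, a glucose-6-phosphate carrier, at 66.7, 68.0, 79.6 and 66.2 CPM. Of 27 hypoxia-response genes 16 were tested, with a median of 0.26 and a range from -0.62 to 1.15. Hif1ab, an oxygen-sensitive transcription factor, stood at 353.5, 509.4, 443.7 and 526.5 CPM, and hif1al at 369.9, 371.9, 399.7 and 403.6 CPM, while vegfaa, vhl and ca9 were at 0. Of 15 erythroid markers 9 were tested, with a median of 0.28, 8 positive values and sums of 7076, 8586, 10440 and 8505 CPM. Of these 9, 2 were called higher, against 2.76% of all tested genes called in either direction. They were gata1a at 5.31, 4.59, 11.8 and 14.3 CPM (log2 fold change 1.40, SE 0.26, adjusted p = 0.0277) and blvrb at 36.4, 34.6, 73.8 and 57.7 CPM (log2 fold change 0.88, SE 0.18, adjusted p = 0.0379). BLVRB (ENSDARG00000097473), which overlaps blvrb (ENSDARG00000096829) on the same strand, stood at 42.5, 30.4, 27.6 and 22.1 CPM (log2 fold change -0.53, SE 0.20, adjusted p = 0.158), so the split of reads between the overlapping pair is uncertain. Alas2, of heme synthesis, stood at 123.6, 98.8, 118.8 and 111.0 CPM. The calls of gata1a and blvrb were lost without hace1 MO A (adjusted p = 0.258 and 0.464) and without hace1 MO B (0.538 and 0.491).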
